A study of Mus musculus with 12 samples.

Results

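The expression of 10 genes of the basement membrane was followed through cultured mouse neurons: the laminin alpha chains Lama1, Lama2, Lama4 and Lama5, the laminin chains Lamb1 and Lamc1, the collagen IV chains Col4a1 and Col4a2, nidogen (Nid1) and perlecan (Hspg2). They are 10 of the 33560 genes with counts. They were chosen by name as core basement membrane genes, with results of these libraries already known, and Lama4 was set against the other 9 because its counts were lower in knockout (KO) than in wild-type (WT) neurons. The KO to WT difference is therefore a description here and carries no test.

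RNA was sequenced from glutamatergic neurons differentiated from mouse embryonic stem cells and harvested at day 21 in culture. KO cells carry the Daam1-MIC_KO allele, a deletion of a microexon of Daam1, a formin that builds actin filaments, and WT cells carry the matching Daam1-MIC_WT label. There were 3 cell lines per genotype, and each line gave 1 library from neurons kept for 2 h in water (vehicle) and 1 from neurons kept for 2 h in 10 µM Y-27632, an inhibitor of the kinase ROCK. The 4 groups of 3 libraries are called WT vehicle, WT inhibitor, KO vehicle and KO inhibitor. The labels do not say whether a line is a clone or how many cultures went into a library, so the spread between libraries may be partly technical. The text of the series speaks of hippocampus from adult mice, whereas each sample label describes cultured neurons, and the sample labels were followed.

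A basement membrane is a thin sheet of extracellular matrix that underlies epithelia and surrounds vessels, muscle fibres and Schwann cells. Laminins are trimers of an alpha, a beta and a gamma chain that assemble into a network at the cell surface, and collagen IV forms a second network that nidogen and perlecan link to the first. In early embryos, laminin with the alpha-1 chain is made in quantity by endoderm, whereas the alpha-4 chain is known from vessels, fat, nerve sheaths and other mesenchymal tissue. Neurons carry receptors for laminin but are not a main source of basement membrane.

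Regulatory sequence upstream of 4 members is shown because their levels moved together across the libraries, as described further on. Entries for 7 of the 10 members were found in the RefSeq promoter table (GRCm38.p6), and none for Lama1, Lama4 and Lamc1. The stretches run 5′ to 3′ on the strand of the gene, end at the base before its annotated start and hold no annotated exon. They lie at chr12:31265043-31265233 (plus strand, Lamb1), chr13:13437352-13437550 (plus, Nid1), chr4:137468553-137468768 (plus, Hspg2) and chr2:180225860-180226109 (minus, Lama5). Capitals mark matches on either strand to the GC box GGGCGG, the CCAAT box and the TEAD motif CATTCC.
Lamb1: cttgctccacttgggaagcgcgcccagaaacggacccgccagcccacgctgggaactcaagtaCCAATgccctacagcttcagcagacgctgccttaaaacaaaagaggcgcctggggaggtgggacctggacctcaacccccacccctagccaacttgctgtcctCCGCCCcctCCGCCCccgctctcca
Nid1: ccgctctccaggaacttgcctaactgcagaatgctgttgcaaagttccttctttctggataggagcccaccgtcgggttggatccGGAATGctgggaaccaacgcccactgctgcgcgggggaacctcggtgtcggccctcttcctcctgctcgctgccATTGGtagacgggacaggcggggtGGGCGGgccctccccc
Hspg2: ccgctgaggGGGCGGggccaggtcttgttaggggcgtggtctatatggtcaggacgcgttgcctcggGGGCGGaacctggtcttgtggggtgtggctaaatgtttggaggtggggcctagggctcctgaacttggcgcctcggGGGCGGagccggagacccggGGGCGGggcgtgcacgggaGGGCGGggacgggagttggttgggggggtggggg
Lama5: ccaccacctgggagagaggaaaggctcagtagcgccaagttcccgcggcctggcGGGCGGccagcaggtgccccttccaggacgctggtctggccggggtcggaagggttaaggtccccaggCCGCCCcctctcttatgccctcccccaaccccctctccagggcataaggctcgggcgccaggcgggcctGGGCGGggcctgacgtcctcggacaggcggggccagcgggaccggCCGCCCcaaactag

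GC boxes numbered 2 in Lamb1, 1 in Nid1, 5 in Hspg2 and 4 in Lama5, and 32.7% of the 32851 promoters in the table hold at least 1 in their 250 upstream bases. A CCAAT box was found in Lamb1, Nid1, Col4a1 and Col4a2 (33.8% of all promoters), and the TEAD motif in Nid1 (12.6%). Col4a2 also held 2 GC boxes, and Col4a1 held 0. The windows of Col4a1 and Col4a2 are not printed, since no base in them was free of annotated exons. Neither the TATA box TATAAA nor the GATA motif AGATAA matched in the 250 upstream bases of any of the 7 members, while 12.4% and 9.99% of all promoters hold them. Most of the members' windows are rich in G and C, against a median of 52.4% over the table. They were at 62.0% in Lamb1, 64.4% in Nid1, 70.0% in Hspg2, 72.4% in Lama5, 74.4% in Col4a1 and 73.6% in Col4a2. Lama2 stood apart at 47.2% and held none of the motifs. Col4a1 (chr8:11198423-11312826, minus strand) and Col4a2 (chr8:11312805-11449287, plus strand) are annotated head to head and overlap by 22 bases in GENCODE M21 (GRCm38), so that reads from that overlap could be assigned to either gene if counting ignored the strand, which was not stated. A motif match is a match of letters and no evidence of binding.

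Before the members are described, 3 libraries need naming, since much of what follows turns on them. WT vehicle line 2, WT inhibitor line 3 and KO inhibitor line 3 stood apart from the rest. Their median correlations with the other libraries were 0.953, 0.967 and 0.854, against 0.972 to 0.986 for the other 9 (Pearson's r of log2 CPM across genes). On the first principal component of log2 CPM, KO line 2 lay at -71.4 in vehicle and -73.8 in inhibitor. WT vehicle line 2 lay at 68.1, WT inhibitor line 3 at 60.3 and KO inhibitor line 3 at 163. Counts per library ran from 23253566 to 35012561. Markers of the labelled cell type were present as Tubb3 (mean 371 cRPKM, reads per length and library size) and Slc17a6, the vesicular glutamate transporter VGLUT2 (73.3 cRPKM), but the forebrain glutamatergic markers Slc17a7, Neurod6 and Tbr1 were near the bottom of the scale at means of 0.41, 0.45 and 0.33 cRPKM. The summed level of 8 glutamatergic markers was 200 cRPKM in KO inhibitor line 3 and 638 to 949 cRPKM in the other 11 libraries.

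The 10 members together took 4.34% of all counts in KO inhibitor line 3, 1.52% in WT vehicle line 2 and 0.834% in WT inhibitor line 3. In the other 9 libraries they took 0.0344% to 0.438%. The libraries that stood apart were thus those richest in member counts, so fits without them leave out only the high end. Ordered by median cRPKM over the 12 libraries, Col4a1 was highest (122), followed by Lamb1 (81.5), Col4a2 (74.9), Lamc1 (54.9), Lama1 (42.1), Nid1 (12.7), Hspg2 (3.75), Lama5 (1.01), Lama4 (0.40) and Lama2 (0.025). Each gene exceeded the next in all 12 libraries, except that Lamb1 exceeded Col4a2 in 5 of 12, and Lama5 exceeded Lama4, and Lama4 exceeded Lama2, in 11 of 12. The order was thus nearly the same in every library, while the level of the whole set differed between them.

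**Figure D1:**
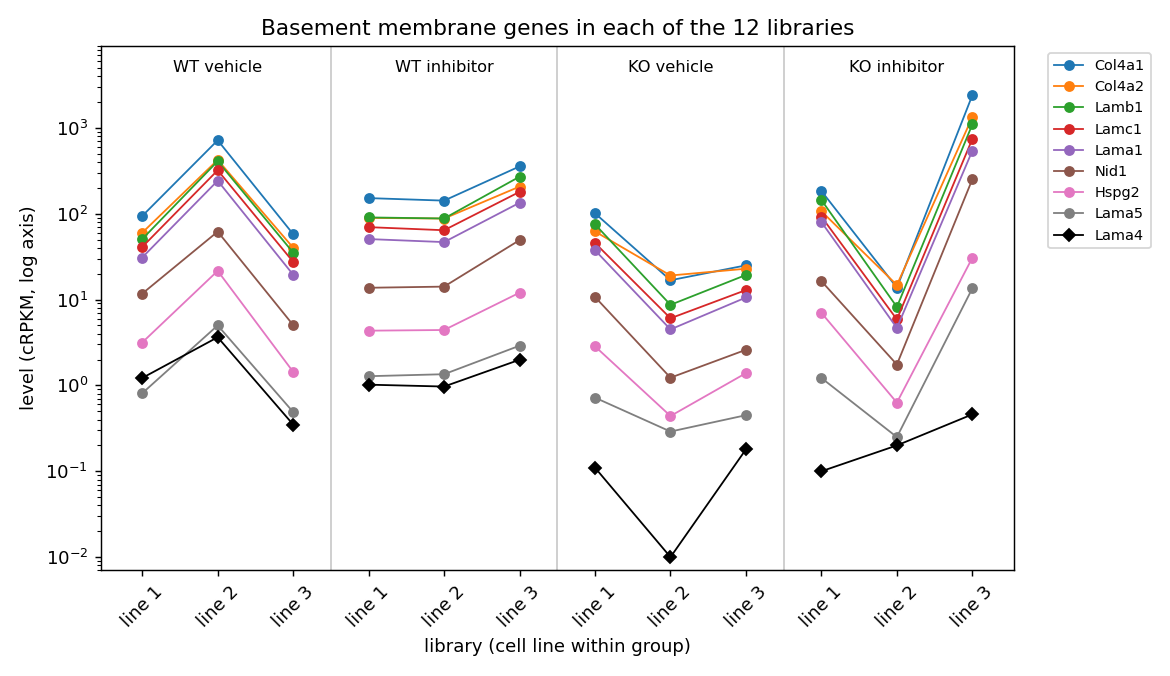
Level of 9 basement membrane genes in each library (cRPKM, log axis), with the 3 cell lines of each group on the x axis and 1 coloured line per gene within a group. Col4a1 reached 2401 cRPKM in KO inhibitor line 3, and Lama4 (black diamonds) stayed at 0.46 cRPKM or below in the 6 KO libraries; Lama2, with at most 12 counts in a library, is not drawn.

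Lama4 (ENSMUSG00000019846, chr10:38965515-39110188, plus strand) encodes the alpha chain with a truncated short arm, and its longest annotated coding sequence has 1816 codons against 3083 for Lama1 and 3718 for Lama5. In WT vehicle it was at 1.22, 3.64 and 0.35 cRPKM in lines 1 to 3, and in KO vehicle at 0.11, 0.01 and 0.18 cRPKM. With inhibitor, WT lines were at 1.02, 0.97 and 1.99 cRPKM and KO lines at 0.10, 0.20 and 0.46 cRPKM. The highest KO library lay below the lowest WT library in vehicle, and the same held in inhibitor. These are small numbers of reads: WT libraries held 64 to 578 Lama4 counts, and KO libraries 2 to 82. In KO vehicle line 2 the 2 counts are below the 3 counts taken as the floor.

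On the log2 scale, Lama4 in KO against WT was -4.09 ± 1.04 in vehicle (fitted fold change ± SE, edgeR, n = 3 libraries each) and -2.44 ± 0.96 in inhibitor. Over the summed counts of each line's 2 libraries it was -3.03 ± 0.57 (3 lines each). Group means were 10.6 ± 10.6 CPM in WT vehicle, 0.614 ± 0.507 CPM in KO vehicle, 8.0 ± 3.47 CPM in WT inhibitor and 1.47 ± 1.02 CPM in KO inhibitor (SD, n = 3). Across all genes tested, a fold change below that of Lama4 was found for 0.0971% in vehicle, 0.233% in inhibitor and 0.118% over the line sums. Lama4 was chosen for this difference, so nothing is read from this rank. The estimate stayed below 0 whichever library was left out, between -4.79 and -2.88 in vehicle, between -3.13 and -2.03 in inhibitor and between -3.71 and -2.60 over the line sums. Without the 3 libraries that stood apart it was -2.87, -2.67 and -2.56 respectively. In bulk RNA, fewer cells of a type that makes Lama4 and less Lama4 RNA per cell cannot be told apart.

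Of the 9 members that passed the count filter, Lama4 was the only one whose KO and WT libraries did not overlap, lower in KO in vehicle, in inhibitor and over the line sums. Among all genes, 4.9% were lower without overlap in vehicle, 7.03% in inhibitor, 3.78% over the line sums, and 0.712% in both treatments. No member was higher in KO without overlap, as 7.62%, 3.51% and 5.18% of all genes were in these comparisons. The edgeR adjusted p was below 0.05 for none of the 9 members and for 0% of all genes in each of these 3 comparisons, while an unadjusted p below 0.05 was given by edgeR to 307, 540 and 426 genes. DESeq2 called 1 member, Lama4, in vehicle (0.0718% of all genes called) and over the line sums (0.565%), and none in inhibitor (0.122%). Since Lama4 was chosen for this difference, nothing is read from these counts. Lama4 also passed the filter mainly through the WT libraries, where it is higher.

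Lama1 (ENSMUSG00000032796, chr17:67697259-67822647, plus strand) encodes the alpha chain of the first laminin made in the embryo, and it was the main alpha chain in every library. In WT vehicle it was at 30.9, 242 and 19.5 cRPKM in lines 1 to 3, and in KO vehicle at 37.5, 4.49 and 10.6 cRPKM. With inhibitor, the WT lines gave 50.6, 46.7 and 134 cRPKM and the KO lines 79.9, 4.67 and 542 cRPKM. WT and KO overlapped in both treatments. The lowest values were the vehicle and inhibitor libraries of KO line 2, and the highest KO inhibitor line 3, at 121 times the lowest. The fitted KO to WT difference was -2.47 ± 1.5 in vehicle and 1.35 ± 1.45 in inhibitor (log2, ± SE), and 0.44 ± 1.28 over the line sums. In inhibitor, WT and KO libraries with the same replicate number deviated together (r of 0.380, 0.649 and 0.795 for numbers 1 to 3). Both line 3 libraries in inhibitor stood apart, so these values are not independent. In vehicle r was -0.350, -0.649 and 0.167, and the labels give no shared source for a number. With that number as a block, the Lama1 difference in inhibitor was -0.019, so the positive sign was not kept.

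Lama5 (ENSMUSG00000015647, chr2:180176373-180225859, minus strand), the alpha chain of many adult epithelia and vessels, followed Lama1 at a far lower level. It was at 0.81, 5.0 and 0.49 cRPKM in WT vehicle, 0.72, 0.29 and 0.45 in KO vehicle, 1.28, 1.35 and 2.90 in WT inhibitor and 1.22, 0.25 and 13.5 in KO inhibitor (lines 1 to 3). KO and WT overlapped in both treatments, and the same library was highest as for Lama1. Its fitted KO to WT difference was -2.09 ± 1.29 in vehicle and 1.35 ± 1.25 in inhibitor on the log2 scale.

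Lama2 (ENSMUSG00000019899, chr10:26980036-27619758, minus strand), the alpha chain of muscle and peripheral nerve, was almost undetected and did not pass the count filter. It had 3, 9 and 7 counts in WT vehicle, 1, 1 and 0 in KO vehicle, 4, 0 and 12 in WT inhibitor and 0, 3 and 1 in KO inhibitor. Summed over the 3 lines, 2 counts in KO vehicle against 19 in WT vehicle gave a ratio of 0.118 after scaling to the library totals (95% exact interval 0.0134 to 0.491), and 4 against 16 in inhibitor gave 0.223 (0.0542 to 0.691). The intervals cover counting error only, not the spread between lines. The 3 KO vehicle libraries all lay below the WT vehicle libraries, and with inhibitor the genotypes overlapped. All 3 KO vehicle counts are below the floor of 3 counts, and 4.9% of the tested genes were lower without overlap in vehicle. Nothing is read from this order.

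Among the alpha chains, Lama1 made up 89.8% to 98.3% of the summed cRPKM in each library. The Lama4 share was 3.69%, 1.45% and 1.70% in WT vehicle, 1.92%, 1.97% and 1.43% in WT inhibitor, 0.286%, 0.203% and 1.60% in KO vehicle and 0.123%, 3.85% and 0.0828% in KO inhibitor (lines 1 to 3). KO line 2 with inhibitor thus had the highest Lama4 share of all, at a total alpha chain level of 5.2 cRPKM, the second lowest. KO and WT did not overlap in Lama4 level within either treatment, but they overlapped in its share of alpha chains in both.

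Lamb1 and Lamc1 encode the beta and gamma chains that pair with either alpha chain. Lamb1 (ENSMUSG00000002900, chr12:31265234-31329644, plus strand) was at 50.6, 409 and 35.2 cRPKM in WT vehicle, 75.1, 8.68 and 19.3 in KO vehicle, 90.5, 87.9 and 269.8 in WT inhibitor and 144, 8.20 and 1096 in KO inhibitor. Lamc1 (ENSMUSG00000026478, chr1:153218922-153332786, minus strand) was at 41.0, 320.5 and 27.5 cRPKM in WT vehicle, 45.6, 6.05 and 12.9 in KO vehicle, 69.7, 64.2 and 179.7 in WT inhibitor and 92.3, 5.87 and 743 in KO inhibitor. Both genes were high and low in the same libraries as Lama1, and KO overlapped WT in both treatments. The fitted differences in vehicle were -2.26 ± 1.52 for Lamb1 and -2.59 ± 1.51 for Lamc1, and in inhibitor 1.39 ± 1.48 and 1.34 ± 1.45 (log2).

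The 3 chains of laminin with the alpha-1 chain kept nearly fixed proportions while their level varied. The ratio of Lamb1 to Lama1 cRPKM lay between 1.64 and 2.02 over the 12 libraries (coefficient of variation 6.84%), and that of Lamc1 to Lama1 between 1.16 and 1.41 (6.07%). The ratio of Lamb1 to Lamc1 was 1.24 to 1.28 in WT vehicle and 1.43 to 1.65 in KO vehicle, without overlap. With inhibitor it was 1.30 to 1.5 in WT and 1.40 to 1.56 in KO, and the groups overlapped. This ratio was looked at after the levels were known and was not tested.

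Col4a1 (ENSMUSG00000031502) and Col4a2 (ENSMUSG00000031503) encode the chains of the most widespread collagen IV, in which 2 alpha-1 chains join 1 alpha-2 chain. Col4a1 was at 94.0, 716 and 57.9 cRPKM in WT vehicle, 101, 16.8 and 25.0 in KO vehicle, 152, 142 and 355 in WT inhibitor and 184, 13.8 and 2401 in KO inhibitor (lines 1 to 3). In KO inhibitor line 3, Col4a1 alone took 1.58% of all counts. Col4a2 was at 60.03, 423 and 40.2 cRPKM in WT vehicle, 62.1, 19.1 and 22.9 in KO vehicle, 89.4, 87.8 and 207 in WT inhibitor and 107, 14.8 and 1335 in KO inhibitor. KO and WT overlapped in both treatments for both genes. Their fitted KO to WT differences were -2.60 ± 1.57 and -2.33 ± 1.41 in vehicle, and 1.91 ± 1.53 and 1.84 ± 1.38 in inhibitor (log2).

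The ratio of Col4a1 to Col4a2 cRPKM was less even than the laminin ratios. It was 1.44 to 1.80 in 9 libraries, 1.09 in KO vehicle line 3, and 0.881 and 0.932 in the vehicle and inhibitor libraries of KO line 2. Those 3 libraries also had the lowest levels of both genes.

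Nid1 and Hspg2 encode the linkers of the laminin and collagen networks. Nid1 (ENSMUSG00000005397, chr13:13437551-13512269, plus strand) was at 11.7, 61.8 and 5.05 cRPKM in WT vehicle, 10.7, 1.23 and 2.60 in KO vehicle, 13.7, 14.2 and 49.2 in WT inhibitor and 16.4, 1.75 and 252 in KO inhibitor. Hspg2 (ENSMUSG00000028763, chr4:137468769-137570630, plus strand) was at 3.16, 21.6 and 1.44 cRPKM in WT vehicle, 2.85, 0.44 and 1.39 in KO vehicle, 4.34, 4.42 and 12.02 in WT inhibitor and 7.0, 0.63 and 30.7 in KO inhibitor. In each treatment KO and WT overlapped for both. The fitted differences were -2.42 ± 1.58 and -2.48 ± 1.35 in vehicle, and 1.72 ± 1.54 and 0.80 ± 1.28 in inhibitor (log2).

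Set side by side, the 8 tested members other than Lama4 had a median KO to WT difference of -2.45 in vehicle, 1.37 in inhibitor and 0.56 over the line sums, and the medians over all genes were -0.010, -0.00050 and 0.045. Lama4 minus that median of 8 was -1.64 on the log2 scale in vehicle, -3.81 in inhibitor and -3.59 over the line sums. Single libraries carried much of the change of sign in the 8. Without WT vehicle line 2, their differences in vehicle were -0.73 to -0.27, and without KO inhibitor line 3 their differences in inhibitor were -1.52 to -0.88, below 0 like that of Lama4 (-3.13). Over the line sums without KO line 3 they were -1.75 to -1.37, and that of Lama4 was -3.71. With the replicate number as a block, the 8 lay between -0.16 and 0.13 in inhibitor and Lama4 at -2.58. Without all 3 libraries that stood apart, they were -0.72 to -0.27 in vehicle and -0.82 to -0.19 in inhibitor.

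**Figure D2:**
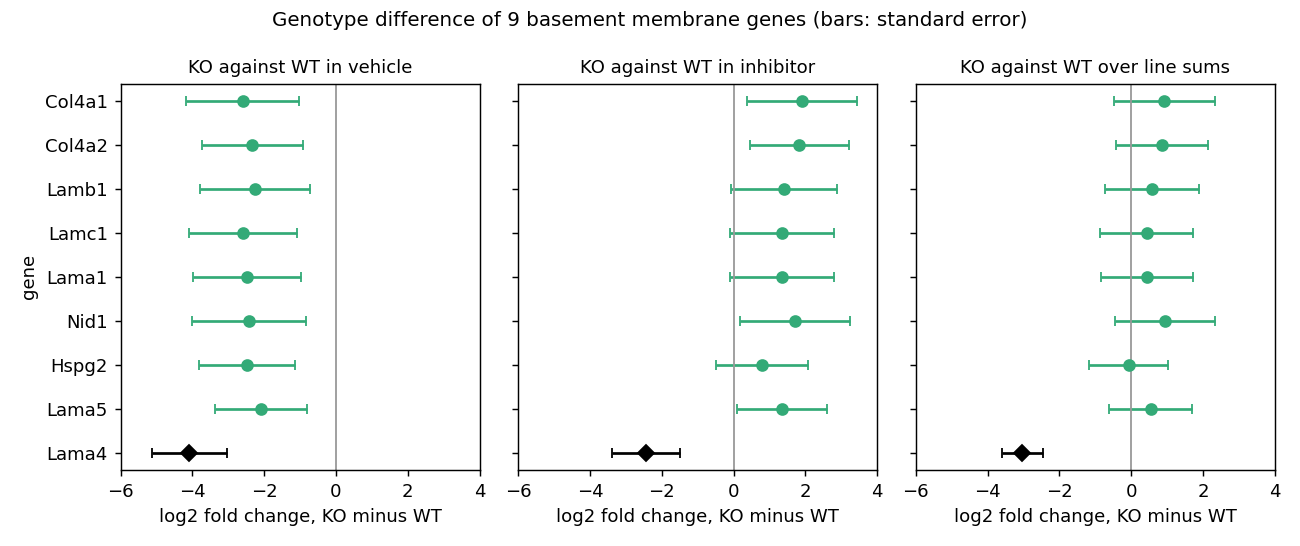
Fitted log2 fold change of KO against WT (x axis) for 9 genes (y axis) in vehicle, in inhibitor and over the line sums; bars are the standard error. The 8 green genes lie between -2.60 and -2.09 in vehicle and between 0.80 and 1.91 in inhibitor, while Lama4 (black diamond) is at -4.09 and -2.44.

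The levels of the 8 members moved together from library to library, and Lama4 moved with them only in part. Over the 12 libraries, Pearson's r of log2 CPM was 0.966 to 0.999 among the 28 pairs of the 8 genes. Between Lama4 and each of the 8 it was 0.564 to 0.664. In the 9 libraries without those that stood apart the ranges were 0.953 to 0.998 and 0.472 to 0.605. These are descriptions over points that share their libraries, scaling and mix of cells, and they carry no p.

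The genes whose pattern was most like that of Lama4, of 13423 ranked, were Col1a2 (r of 0.971), Sema3c (0.963), Col3a1 (0.960), Col6a2 (0.948) and Itga11 (0.939), over 12 libraries. In the 9 libraries r was 0.972, 0.968, 0.979, 0.934 and 0.915. Col1a2 and Col3a1 encode chains of the fibrillar collagens, Col6a2 a chain of microfibrillar collagen VI, Itga11 a collagen receptor and Sema3c a secreted guidance cue. Col1a2 was at 18.9 ± 19.3 cRPKM in WT vehicle and 2.16 ± 1.75 in KO vehicle, and at 15.4 ± 9.23 in WT inhibitor and 2.95 ± 0.709 in KO inhibitor (SD, n = 3). Col3a1 was at 31.3 ± 28.5, 2.58 ± 1.5, 28.9 ± 21.5 and 3.88 ± 0.842 cRPKM in the same order. The other 8 tested members ranked 309 to 904 in likeness to Lama4.

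Markers of other cells moved with both patterns. The 8 markers of primitive and parietal endoderm (Gata4, Gata6, Sox17, Sox7, Dab2, Foxa2, Afp and Ttr) summed to 11.1 to 138 cRPKM in WT vehicle, 4.18 to 31.0 in KO vehicle, 32.3 to 127 in WT inhibitor and 2.66 to 483 in KO inhibitor. All 8 were counted, with Dab2, an endocytic adaptor, highest at a mean of 21.3 cRPKM, and in KO against WT 8 of 8 were lower in vehicle and 1 of 8 in inhibitor. Their sum correlated with Lama1 at r of 0.992 over 12 libraries (0.988 over 9) and with Lama4 at 0.558 (0.422). The Lama1 level divided by this sum stayed between 1.06 and 1.76, while Lama1 varied 121-fold and the sum 182-fold. This ratio was 1.70 to 1.75 in WT vehicle and 1.07 to 1.57 in KO vehicle, lower in KO without overlap. With inhibitor it was 1.06 to 1.45 in WT and 1.12 to 1.76 in KO, and the groups overlapped.

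Fibroblast markers followed Lama4 more closely. The 7 markers Col1a1, Col1a2, Col3a1, Dcn, Lum, Pdgfra and Postn summed to 27.4 to 263 cRPKM in WT vehicle, 7.22 to 24.9 in KO vehicle, 66.8 to 185 in WT inhibitor and 18.3 to 97.7 in KO inhibitor, and in KO 7 of 7 were lower in vehicle and 6 of 7 in inhibitor. The sum correlated with Lama4 at r of 0.956 (0.972 over 9 libraries) and with Lama1 at 0.760 (0.563). Thy1, the eighth gene of that list, is also a neuronal gene and was left out after its mean of 219 cRPKM was seen; with it r with Lama4 was 0.359. Per unit of this sum, Lama4 was 1.28% to 1.38% in WT vehicle, 0.139% to 0.815% in KO vehicle, 1.07% to 1.45% in WT inhibitor and 0.471% to 1.09% in KO inhibitor. The groups did not overlap in vehicle and overlapped slightly in inhibitor. The 0.139% is KO vehicle line 2, with 2 Lama4 counts. The 0.471% is KO inhibitor line 3, where the marker sum was 97.7 cRPKM. Col1a2 and Col3a1 averaged only 2.95 and 3.88 cRPKM in KO inhibitor, so the sum in that library came mainly from other markers of the 7. Pdgfra ranged from 0.35 to 83.2 cRPKM over the libraries. The ratio in inhibitor thus depends on which markers are summed. What part either cell type's RNA has in the members' levels was not tested.

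**Figure D3:**
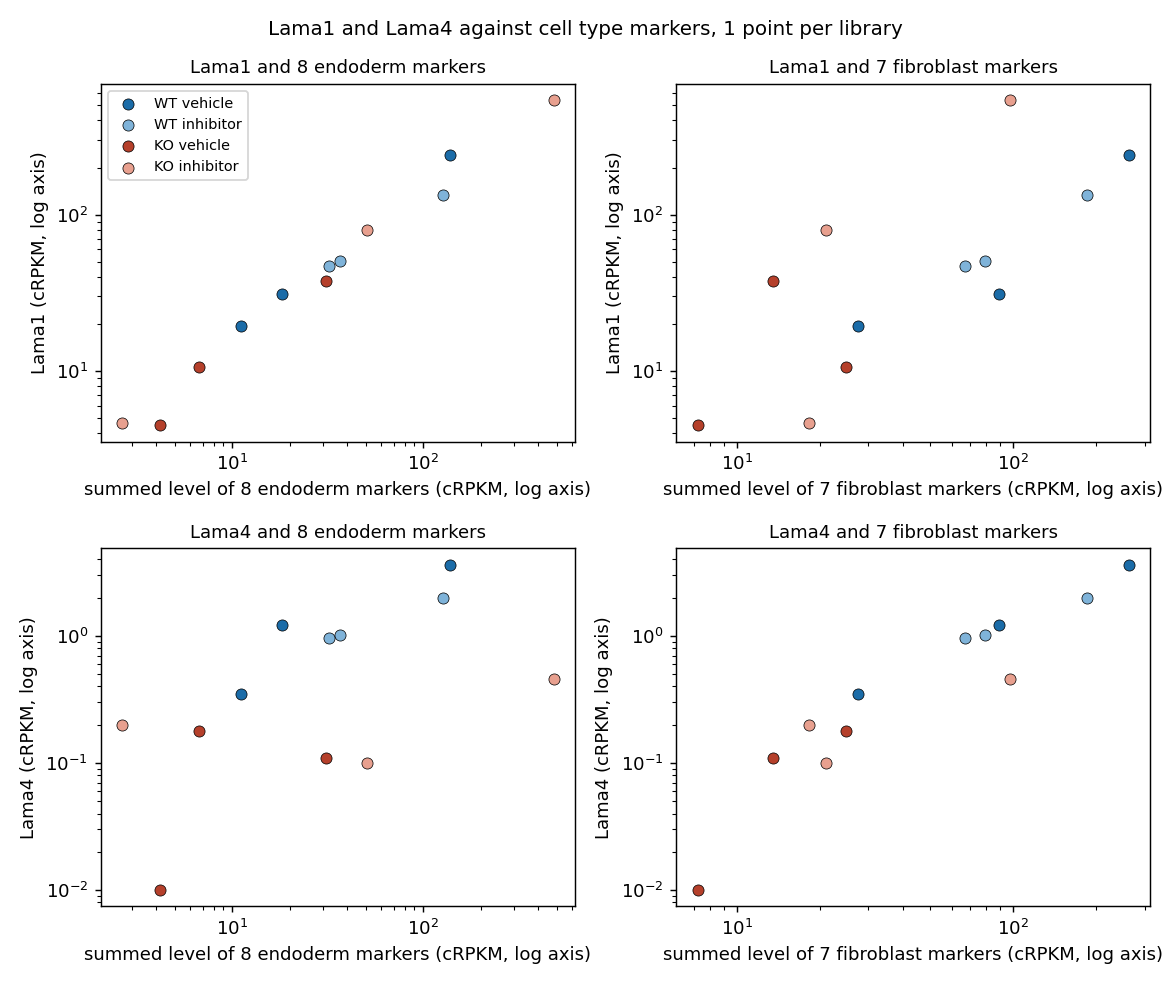
Lama1 (top) and Lama4 (bottom) against the summed level of 8 endoderm markers (left) and 7 fibroblast markers (right), all in cRPKM on log axes, 1 point per library coloured by group. Lama1 tracks the endoderm sum (r of 0.992) and Lama4 the fibroblast sum (r of 0.956).

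Other cell types were checked in the same way. Of 8 endothelial markers, Cldn5, the tight junction protein of brain vessels, had no count in any library, Tie1 had 1 count in all and Pecam1 was at most 0.30 cRPKM, whereas Flt1 reached 34.2, Tek 31.0 and Cdh5 7.16 cRPKM. The endothelial sum was 2.86 to 26.1 cRPKM in WT vehicle, 1.07 to 4.23 in KO vehicle, 6.11 to 18.4 in WT inhibitor and 0.79 to 73.7 in KO inhibitor, with r of 0.989 with Lama1. Pericyte and smooth muscle markers, led by Tagln (mean 7.28 cRPKM), summed to 3.36 to 61.9, 1.63 to 5.96, 11.98 to 27.8 and 2.5 to 35.7 cRPKM in the same order, and correlated with Lama4 at 0.851 and with Lama1 at 0.872. Schwann and oligodendrocyte markers, led by Mbp (mean 4.73 cRPKM), correlated with Lama1 at -0.859, and the neural crest factor Sox10 had 9 counts in all libraries together. Astrocyte and radial glia markers, led by Aldoc (mean 144 cRPKM), summed to 462 cRPKM in KO inhibitor line 3 and 172 to 250 elsewhere. Skeletal and cardiac muscle markers, led by Tnnt2 (mean 1.20 cRPKM), summed to 5.42 there and 0.66 to 1.17 elsewhere. Pluripotent markers, led by Esrrb (mean 3.73 cRPKM), summed to 12.6 there, 11.4 in WT vehicle line 2 and 5.05 to 6.37 elsewhere.

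The response to the ROCK inhibitor was not the ground for choosing the members and was tested, though earlier results of these data were known. Neither in WT nor in KO neurons did a member pass an edgeR adjusted p of 0.05, and 0% of all genes did. In WT, the differences of inhibitor against vehicle lay between -0.47 (Col4a2) and -0.05 (Nid1) on the log2 scale, with SEs of 0.90 to 1.5 and edgeR adjusted p of 1.00 for all 9. Before adjustment, p was below 0.05 for 47 genes with edgeR and for 66 with DESeq2, no member among them, and DESeq2 called none after adjustment. The vehicle and inhibitor libraries of each genotype overlapped for all 9 members, whereas 2.93% of all genes were lower and 3.04% higher with inhibitor without overlap in WT, and 5.65% and 3.19% in KO. In WT, the SEs are larger than the differences for all 9 members.

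In KO, the differences were 2.93 ± 1.37 (Hspg2) to 4.09 ± 1.70 (Nid1) for the 8 members and 1.25 ± 0.96 for Lama4 (log2, ± SE, n = 3 libraries each). The edgeR adjusted p was 0.474 for each of the 8 and 0.523 for Lama4, and over the alternatives it ranged from 0.164 to 1.00 for the 8 and from 0.359 to 1.00 for Lama4. Before adjustment, 5 of the 9 members had an edgeR p below 0.05, among 1088 of 15443 genes, and 8 by DESeq2, among 2164. With the cell line as a block, the differences were 1.57 (Lama5) to 1.99 (Nid1) in the 8 members and 1.40 in Lama4. Without KO inhibitor line 3 they were 0.55 (Lama5) to 1.24 (Hspg2) in the 8 and 0.55 in Lama4. The interaction of genotype and treatment was 3.28 to 4.51 for the 8 and 1.65 ± 1.32 for Lama4, with an edgeR adjusted p of 0.808 for all 9 (0.460 to 1.00 over the alternatives). Without KO inhibitor line 3 it was 0.75 (Lama5) to 1.60 (Hspg2) for the 8, and with the cell line as a block it was 1.07 to 1.58 for the 8 and 1.36 for Lama4. No gene passed, with 185 genes by edgeR and 508 by DESeq2 at an unadjusted p below 0.05, among them 0 and 8 members. The interaction is the KO to WT difference in inhibitor minus that in vehicle. Lama4 was chosen on those differences, so nothing is read from its interaction p.

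Line by line, the inhibitor library lay above the vehicle library in some lines and below it in others. Lama1 with inhibitor was 1.67 times its vehicle level in WT line 1, 0.189 times in WT line 2 and 7.06 times in WT line 3. In KO lines 1 to 3 it was 2.06, 1.05 and 47.3 times (CPM). All 8 members were higher with inhibitor in WT lines 1 and 3 and in KO lines 1 and 3, all 8 were lower in WT line 2, and 3 were higher and 5 lower in KO line 2. The largest ratios in KO line 3 were 89.3 for Nid1 and 88.5 for Col4a1. Lama4 was at 0.858, 0.261 and 5.74 times its vehicle level in the WT lines and at 0.949, 13.7 and 2.38 times in the KO lines, where the 13.7 rests on 2 counts in vehicle. In WT line 1 and KO line 1, Lama4 was slightly lower with inhibitor while all 8 others were higher.

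**Figure D4:**
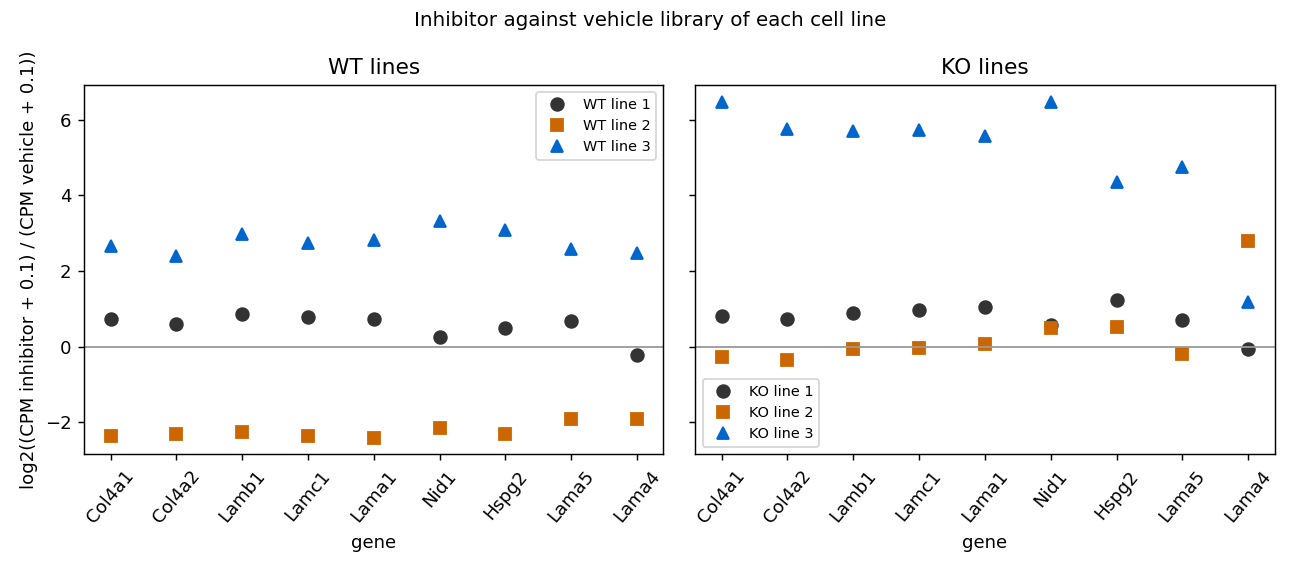
Difference between the inhibitor and the vehicle library of each cell line (y axis, log2 ratio of CPM + 0.1) for 9 genes (x axis), WT lines on the left and KO lines on the right. In WT the 8 members other than Lama4 lie below 0 in line 2 and above 0 in lines 1 and 3, and KO line 3 lies between 4.35 and 6.47 for them and at 1.18 for Lama4.

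Beyond the 10 members, 52 further genes of basement membranes were looked at, of which 48 could be tested. None was called by edgeR in any of the 6 comparisons, against 0% of all genes. Their median KO to WT difference was -1.10 in vehicle (5 higher, 43 lower), 0.45 in inhibitor (30 higher, 18 lower) and 0.07 over the line sums (31 higher, 17 lower), all on the log2 scale. The median thus differed in sign between treatments, but 15 of the 48 were below 0 in both. Among other laminin chains, Lamb2 was highest, at 0.37 to 30.9 cRPKM, and correlated with Lama1 at 0.989. Lamb3, a chain of epithelial laminin, had the largest difference over the line sums there, 0.69 ± 1.05. Of the other collagen IV chains Col4a5 was highest, at 0.12 to 2.08 cRPKM.

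Sparc, a collagen-binding matrix protein, was the most abundant of the further components, at 38.5 to 4775 cRPKM, and correlated with Lama1 at 0.994. Col18a1, the basement membrane collagen that yields endostatin, had the largest difference over the line sums among components. It was at 4.83, 10.2 and 1.55 cRPKM in WT vehicle, 1.62, 1.30 and 1.79 in KO vehicle, 4.10, 3.50 and 7.05 in WT inhibitor and 1.57, 1.60 and 1.10 in KO inhibitor (lines 1 to 3). KO and WT did not overlap in inhibitor, and in vehicle WT line 3 lay among the KO lines. Its KO to WT difference was -1.80 ± 0.57 in vehicle, -1.80 ± 0.57 in inhibitor and -1.77 ± 0.22 over the line sums, and it correlated with Lama4 at 0.843 and with Lama1 at 0.377. In KO inhibitor line 3, where the 8 members were highest, Col18a1 was at its lowest.

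Of the 48 further genes, 3 were lower in KO without overlap in both treatments, as Lama4 was, against 0.712% of all genes, and they are named here after their values were seen. Smoc2, a calcium-binding matrix protein, was at 0.92, 1.59 and 1.05 cRPKM in WT vehicle, 0.43, 0.37 and 0.62 in KO vehicle, 0.74, 0.86 and 2.39 in WT inhibitor and 0.33, 0.55 and 0.33 in KO inhibitor. Its KO to WT difference was -1.29 ± 0.49 in vehicle and -1.74 ± 0.50 in inhibitor (log2). Ddr2, a receptor tyrosine kinase for fibrillar collagen, differed by -1.40 ± 0.41 and -1.76 ± 0.42, and Hmcn1, a large immunoglobulin-domain protein of the matrix, by -1.48 ± 0.46 and -1.41 ± 0.46. They correlated with Lama4 at 0.782, 0.821 and 0.623, in the order named, and with Lama1 at 0.216, 0.471 and -0.081. Since they were picked for the same lack of overlap as Lama4, some positive correlation with it was built in.

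Among receptors, Itgb1, the beta subunit of most laminin and collagen integrins, was highest at 10.8 to 156 cRPKM and correlated with Lama1 at 0.969. Itga1, a collagen-binding alpha subunit, had the largest difference over the line sums of the receptors, at -1.61 ± 0.55, and correlated with Lama4 at 0.889. It was at 0.31, 0.92 and 0.10 cRPKM in WT vehicle, 0.05, 0.07 and 0.13 in KO vehicle, 0.37, 0.18 and 0.65 in WT inhibitor and 0.07, 0.12 and 0.36 in KO inhibitor. These groups overlapped in both treatments. Serpinh1, the chaperone of collagen folding also called HSP47, led the processing genes at 12.1 to 1679 cRPKM and correlated with Lama1 at 0.994 and with Lama4 at 0.577.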

How the data were processed

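For each library the authors deposited a table of genes by Ensembl identifier, with cRPKM in one column and a count of reads in the next. Those deposited counts are whole numbers without normalization, and cRPKM is a corrected RPKM deposited by the authors, the correction being not given in the sources used here. The build is mm10 per the submitters' processing notes; aligner and strand use in counting are not given in the sources used here. Libraries are poly(A)-selected and stranded per the labels' protocols. Of 36902 rows, 3342 were NA. Counts were tested with edgeR 4.0.16 in R 4.3.3 (filterByExpr by group, TMM, robust quasi-likelihood fit, all 12 libraries in 1 fit with a coefficient per group, 15443 genes; line sums in a second fit, 16090 genes), with Benjamini-Hochberg adjustment over all genes and a threshold of 0.05. The SE of a log2 fold change was obtained as its size over the root of the F statistic. CPM uses TMM factors, and correlations use log2 CPM with a prior count of 2. The floor is 3 counts, and intervals are at 95%. DESeq2 1.42.0, other scalings, filters and left-out libraries were alternatives. The edgeR procedure was also run on simulated data. Its outcome is not given here, so it says nothing about what could be detected in these data. Vehicle and inhibitor libraries pair by the cell line in the labels; the correlation of their deviations from group means was -0.72 to 0.57. WT and KO of the same replicate number correlated at 0.38 to 0.80 in inhibitor and -0.65 to 0.17 in vehicle, and the labels give no shared source for them. Members, gene lists, marker lists and alternatives were chosen with earlier results of these data known. Named genes are all members, the 5 most like Lama4 with a mean of at least 1 CPM, the highest gene of each list and the most different with a mean of at least 1 CPM, and the highest and the zero genes of each marker list; other marker genes, and Smoc2, Ddr2 and Hmcn1, were named after their values were seen. The planned set of 9 genes beside Lama4 became 8, because Lama2 did not pass the filter.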

Additional observations from a re-analysis of the deposited data

How the results depend on the processing

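No alternative changed the sign of Lama4 in KO against WT, which the lack of overlap between its libraries largely fixed in advance. The gap between Lama4 and the median of the other 8 tested members was -2.62 to -0.50 in vehicle, -4.25 to -2.04 in inhibitor and -3.93 to -2.14 over the line sums when 1 library or line was left out. It was -0.78 in vehicle, -1.92 in inhibitor and -1.80 over the line sums on log2(cRPKM + 0.1), and -1.87 over the line sums without the 3 libraries that stood apart; the cause was not tested. The number of genes called by adjusted p, 0 by edgeR, became 11 (vehicle), 18 (inhibitor) and 87 (line sums) with DESeq2. It became 2, 1 and 2 without the 3 libraries, and 2 over the line sums with no low-count filter; leaving out 1 library gave 0 in all fits.

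The inhibitor difference in WT had no fixed sign. Without the 3 libraries it was 0.97 for Lama1, 0.37 for Lama4, 1.04 for Lama5, 1.07 for Lamb1, 0.98 for Lamc1, 0.97 for Col4a1, 0.84 for Col4a2, 0.75 for Nid1 and 0.95 for Hspg2. With the cell line as a replicate block it was 0.48, 0.049, 0.50, 0.62, 0.50, 0.43, 0.31, 0.41 and 0.44 in the same order of genes. This block changed no call. With the label's replicate number as a block across WT and KO, Lama4 in KO against WT was -3.64 in vehicle, -2.58 in inhibitor and -3.13 over the line sums, and no gene was called. The other 8 members were then at -1.86 to -1.25, at -0.16 to 0.13 and at -0.50 to -0.15 in the same order of comparisons, and only Col4a2 in inhibitor remained above 0. For inhibitor against vehicle in WT, 1 library at a time was also left out. The lowest and highest differences were then -1.03 and 1.62 for Lama1, -0.89 and 0.77 for Lama4 and -0.70 and 1.51 for Lama5. They were -0.91 and 1.80 for Lamb1, -0.98 and 1.62 for Lamc1, -1.0 and 1.52 for Col4a1 and -1.0 and 1.36 for Col4a2. For Nid1 they were -0.93 and 1.62, and for Hspg2 -1.02 and 1.60. For each gene this difference was highest without WT vehicle line 2. The interaction without the 3 libraries was -0.48 for Lama5, -0.053 for Col4a2, 0.053 to 0.30 for the other 6 and 0.20 for Lama4. The number of libraries per group (3) and SEs of 1.29 to 1.58 in vehicle limit what could be detected in the 8 members, and the counts of 2 to 82 limit Lama4 in KO.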
